A study of Mus musculus with 12 samples.

Results

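The lysosomal genes described here are 37 genes of the 34327 in the deposited table, taken by name and all found. They comprise 6 proteins of the lysosomal membrane (Lamp1, Lamp2, Cd63, Laptm5, Mcoln1 and Scarb2). Next are 8 enzymes that act on glycans (Hexa, Gla, Glb1, Gusb, Man2b1, Neu1, Gaa and Sgsh). A further 5 proteins cleave or carry lipids (Asah1, Psap, Gm2a, Ppt1 and Npc2). The 37 also comprise 2 proteases (Tpp1 and Lgmn), 14 genes of the vacuolar proton pump (V-ATPase) and the transcription factors Tfeb and Tfe3. Cathepsins were left out. The rule used names and functions, not measured values, though the members were chosen with earlier results of these data known. Each of the 37 had a mean of at least 1 TPM (transcript abundance scaled to a fixed total per library), so that all entered the tests.

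RNA-seq libraries were made from bone marrow–derived macrophages (BMDMs), which are cells grown from mouse bone marrow with a source of the growth factor CSF1, here medium conditioned by L929 cells. The mice were wild-type, with the strain labelled C57BL/6 and given as C57BL/6J in the protocol, and no condition carried a genetic change. BMDMs were cultured for 24 hours within low-collagen gels (2 mg/ml), within high-collagen gels (7 mg/ml) or on plastic tissue culture (TC) plates, alone or with interleukin-4 (IL-4; 20 ng/ml), a cytokine that induces a tissue-reparative program in macrophages. Each of the 6 conditions had 2 libraries, and levels are given below for replicate 1 and then replicate 2, untreated unless IL-4 is named. The gels were of rat tail collagen I, and cells in gels were embedded and then lysed by dissolving the gel, so the substrate and the way the cells were harvested cannot be told apart in comparisons with plates.

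Each library summed to about the same TPM (999658 to 999723), a measure corrected for transcript length that carries no depth, so the number of reads behind a value is unknown. Differences are log2 fold changes on the log2(TPM + 1) scale from limma, with adjustment by Benjamini-Hochberg over all genes tested, and a gene is called at an adjusted p under 0.2. An exact permutation test of 2 libraries against 2 cannot give a p under 0.333, so each call relies on limma's pooling of the spread over genes. The labels do not state that replicates came from separate animals, and the p-values then measure only the spread between these libraries, which may be technical. Between replicates, the members differed by a median of 0.04 to 0.08 on the log2 scale, and the largest difference was 0.32, for Tfeb in high-collagen gels. All 8 macrophage markers were at 1 TPM or more in every library. No T cell, mast cell, basophil or dendritic cell marker of the lists used reached 1 TPM in any library. In these bulk samples, fewer cells of a type and less RNA per cell cannot be told apart.

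Lysosomes are acidic organelles in which macrophages degrade what they engulf and what autophagy delivers. Soluble hydrolases work in their lumen, a coat of glycosylated membrane proteins protects and serves the limiting membrane, and the V-ATPase pumps protons inward with a membrane sector (V0) and a cytosolic sector that hydrolyzes ATP (V1). TFEB and TFE3 are related factors that bind E-box sequences in the promoters of many lysosomal genes, and they are controlled largely by where in the cell they reside, which mRNA levels do not show.

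Promoters were examined for the E-box CACGTG, which reads the same on both strands, because that is the sequence through which TFEB and TFE3 are known to act. A RefSeq window of 250 bases before to 50 bases after the start was found for 33 of the 37 members, and not for Asah1, Atp6v1b2, Atp6v1c1 and Atp6v1h. CACGTG was present in a window of 11 of the 33 members (33.3%), against 8.09% of all 27025 genes with a window and 12% of those that entered the tests. The longer form TCACGTG on either strand, which contains CACGTG, was found in 33.3% of the members, 4.29% of all genes and 7.23% of the genes tested. Per window, CACGTG was in 26.2% of 42 windows of members and in 7.15% of all 32851 windows. The 11 genes were Lamp1, Mcoln1, Gla, Glb1, Gaa, Sgsh, Lgmn, Atp6v0b, Atp6v0d1, Atp6v0e and Atp6v1a.

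The 100 bases before the start of 4 members are given here (RefSeq windows on GRCm38.p6, cut back to the start of the annotated gene, with CACGTG in capitals). Lamp1 held 4 copies, and Lamp1 and Glb1 were higher with IL-4 on each substrate. Atp6v0b held 2 copies and was lower with IL-4 on each substrate, though with libraries rescaled by their median ratio it was called lower only on plates. Psap, the member with the highest level and one that IL-4 raised on each substrate, held none in its window.
Lamp1 (chr8:13159061-13159160, plus strand): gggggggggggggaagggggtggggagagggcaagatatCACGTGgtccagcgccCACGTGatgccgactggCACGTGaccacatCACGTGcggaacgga
Glb1 (chr9:114400976-114401075, plus strand): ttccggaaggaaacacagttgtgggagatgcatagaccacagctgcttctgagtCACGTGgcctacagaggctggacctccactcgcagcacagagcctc
Atp6v0b (chr4:117887334-117887433, minus strand): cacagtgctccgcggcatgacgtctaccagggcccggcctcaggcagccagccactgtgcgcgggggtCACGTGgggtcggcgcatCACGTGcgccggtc
Psap (chr10:60277527-60277626, plus strand): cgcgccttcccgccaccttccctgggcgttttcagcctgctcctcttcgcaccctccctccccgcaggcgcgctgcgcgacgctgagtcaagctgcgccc

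With IL-4, members with the motif were called in both directions. In low-collagen gels 7 of the 11 rose and 4 fell, in high-collagen gels 7 rose and 3 fell, and on plates 5 rose and 2 fell. Among the 22 members with a window and no motif, 13 rose and 5 fell in low-collagen gels, 10 rose and 3 fell in high-collagen gels, and 7 rose and 8 fell on plates. Of all genes tested, 13.2%, 11.5% and 14.7% rose and 40.4%, 22.8% and 24.0% fell in low-collagen gels, high-collagen gels and on plates. A match of these letters is a description of the sequence and does not show that a factor was bound.

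Members together took 1.82% and 1.85% of all TPM on plates and 2.32% and 2.27% there with IL-4. In gels they took 2.70% to 2.79% without IL-4 and 3.49% to 3.53% with IL-4. Psap, which encodes prosaposin, the precursor of the saposins that present sphingolipids to their hydrolases, made up much of this sum. Without Psap the members summed to 14466 and 14779.5 TPM on plates, 15905 and 15850.5 TPM there with IL-4, 16114 to 16823 TPM in untreated gels and 18171 to 18605 TPM in gels with IL-4. The ranges of the 4 sets did not overlap in either sum. At the other end, Tfeb had the lowest mean level, 31.5 TPM over all libraries, and the mean of Psap was 10959 TPM.

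**Figure D1:**
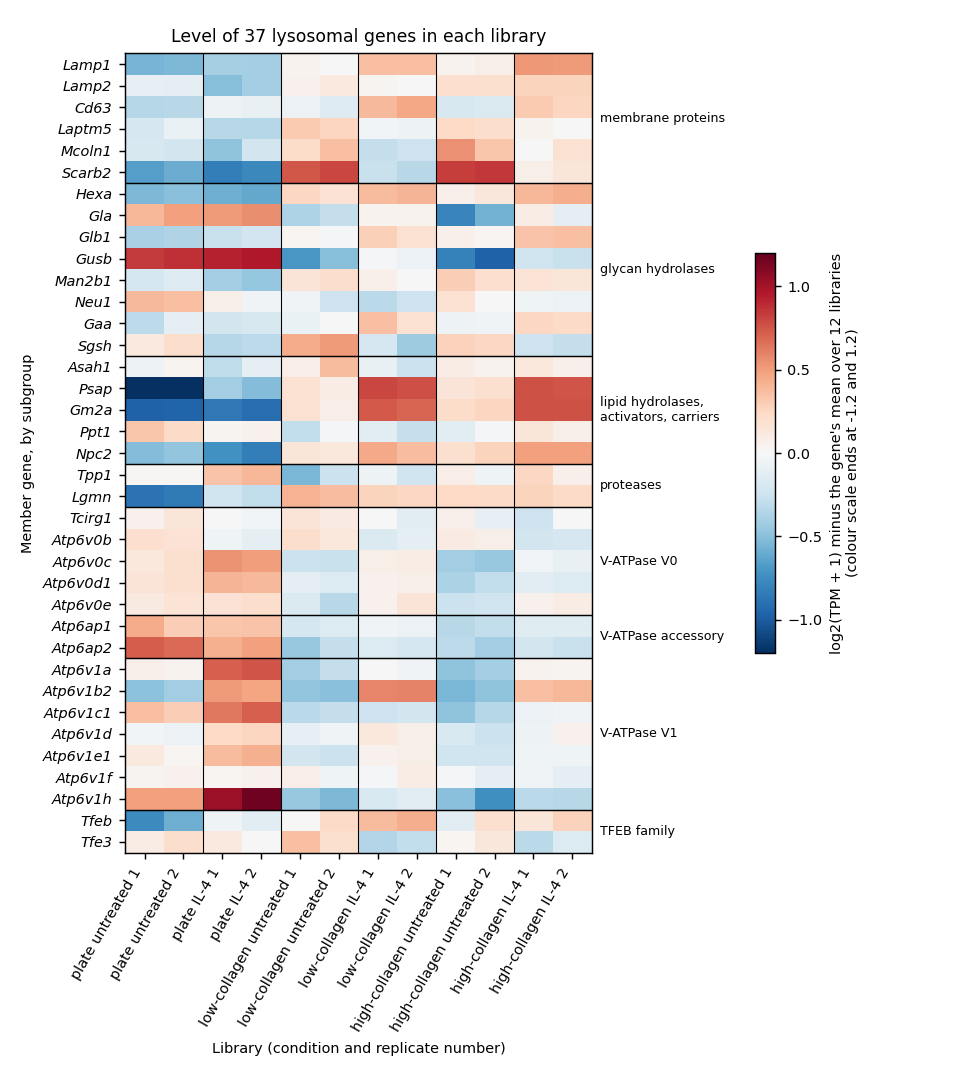
Levels of the 37 members (rows, by subgroup) in 12 libraries (columns), as log2(TPM + 1) minus the mean of the gene over the libraries. Psap, Lamp1, Hexa, Gm2a and Npc2 are higher in each of the 8 gel libraries than in the 4 plate libraries, Gusb, Gla, Atp6ap2, Atp6v1c1 and Atp6v1h are higher in each plate library, and Atp6v1b2 is higher in each IL-4 library.

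With IL-4, most members changed, and more of them rose than fell. In low-collagen gels 22 of 37 members rose and 10 fell, where 53.6% of all genes were called (13.2% higher and 40.4% lower). In high-collagen gels 20 rose and 6 fell, where 34.3% of all genes were called (11.5% higher and 22.8% lower). On plates 15 rose and 10 fell, where 38.8% were called (14.7% higher and 24.0% lower). Members had a median log2 fold change of 0.18, 0.19 and 0.06 in low-collagen gels, high-collagen gels and plates, beside −0.19, −0.10 and −0.06 for all genes. Because the median of all genes was itself below 0, libraries were also rescaled by their median ratio. This moved the median of all genes in low-collagen gels to 0.00 and the split of the members to 25 higher and 5 lower, and gave 25 and 3 in high-collagen gels. The split of all genes moved with it, to 24.0% higher and 20.4% lower in low-collagen gels and 17% and 14.6% in high-collagen gels.

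IL-4 raised 11 members on all 3 substrates and lowered 4, against 5.92% and 10.4% of the 11695 genes tested on all 3. The 11 were Lamp1, Cd63, Glb1, Psap and 7 subunits of the V-ATPase (Atp6v0c, Atp6v0d1, Atp6v1a, Atp6v1b2, Atp6v1d, Atp6v1e1 and Atp6v1h), and each was called higher on each substrate also after rescaling and with values corrected for the GC content and length of transcripts. The 4 that fell were Laptm5, Scarb2, Sgsh and Atp6v0b, of which Scarb2 and Sgsh were called lower under all 3 scalings. In 3 members (Npc2, Lgmn and Atp6ap2) the calls went in opposite directions between plates and a gel. The IL-4 comparisons on different substrates share no libraries. Of the 11, Glb1, Atp6v0d1, Atp6v1d and Atp6v1h, and of the 4, Scarb2, were not called on every substrate once each library was left out in turn. Calls that either alternative scaling ended were those of Laptm5, Man2b1, Lgmn, Tcirg1 and Atp6v0b in low-collagen gels and of Laptm5, Atp6v0b and Tfe3 in high-collagen gels.

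**Figure D2:**
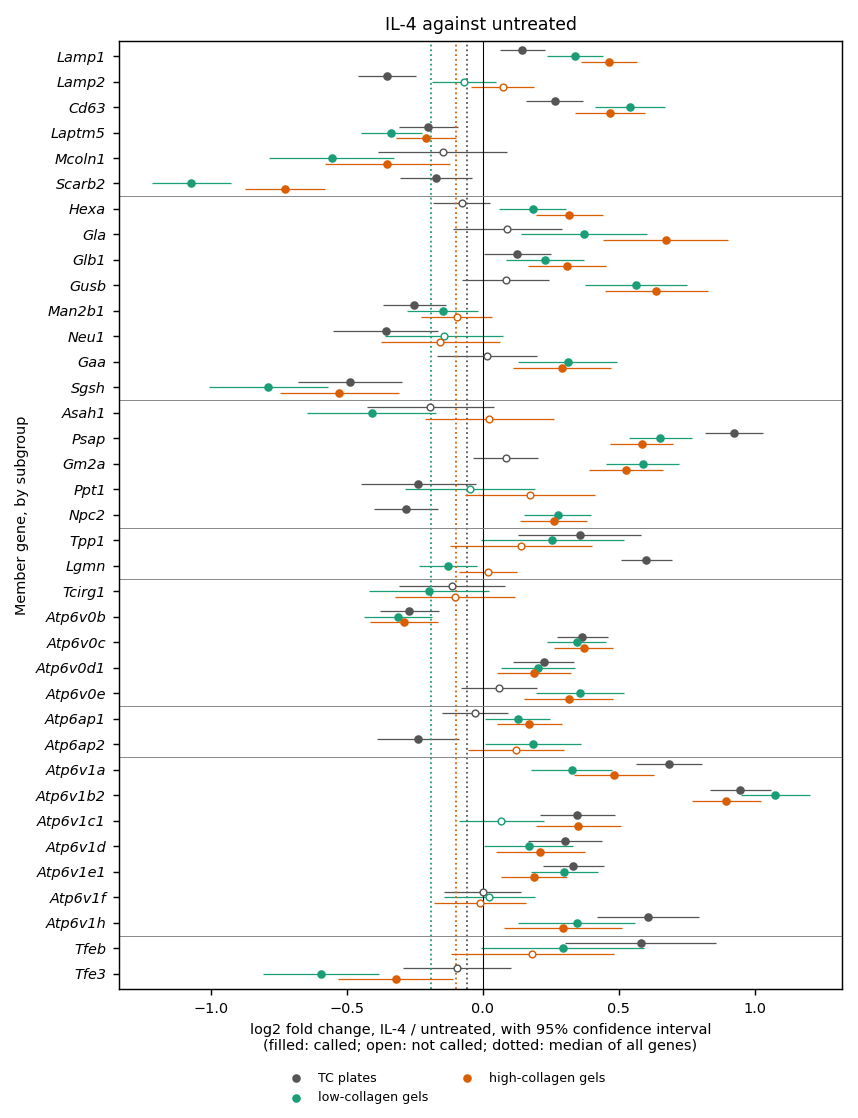
Log2 fold change with IL-4 (x axis, with 95% confidence interval) of each member (y axis) on TC plates and in gels of low and high collagen, where filled points are called and dotted lines mark the median of all genes. Atp6v1b2 rises by close to the same amount on all 3 substrates, Scarb2 falls most in low-collagen gels, and Npc2 and Lgmn lie on opposite sides of 0 on plates and in low-collagen gels.

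Between gels and plates the subgroups differed in direction. Of the 6 membrane proteins, 6, 6, 5 and 6 were higher and none lower in low- and high-collagen gels without IL-4 and in low- and high-collagen gels with IL-4, in that order. Of the 15 soluble proteins, 10, 8, 8 and 9 were higher and 5, 4, 5 and 3 lower. Of the 14 V-ATPase genes, 0, 0, 1 and 0 were higher and 9, 12, 9 and 13 lower. Over all 37 members, 31, 31, 30 and 33 were called, 17, 15, 15 and 16 of them higher, where 72.8%, 73.5%, 75.1% and 74.6% of all genes were called (28.5%, 28.0%, 22.8% and 26.5% higher, and 44.3%, 45.5%, 52.2% and 48.1% lower). The shares of members called were 83.8%, 83.8%, 81.1% and 89.2%. The gels with and without IL-4 were compared with different plate libraries, while both gels at one treatment were compared with the same ones.

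The V-ATPase pattern depends in part on scaling. Median-ratio rescaling moved the median of all genes by 0.14 to 0.28 and left 4, 1, 6 and 1 V-ATPase genes higher and 9, 9, 5 and 8 lower, so that in low-collagen gels with IL-4 the balance of calls turned. With the GC and length correction, 2, 2, 3 and 1 were higher and 9, 9, 9 and 10 lower. All 6 membrane proteins were called higher in each of the 4 comparisons under both alternatives. Scaling ended the calls of Gla, Neu1, Ppt1, Atp6v0d1, Atp6ap1, Atp6v1d, Atp6v1e1 and Tfe3 in low-collagen gels with IL-4, of Neu1, Ppt1, Atp6v0b, Atp6v1d, Atp6v1e1 and Atp6v1f in high-collagen gels without IL-4, and of Tpp1, Atp6v0b, Atp6v0e, Atp6v1b2, Atp6v1d, Atp6v1f, Tfeb and Tfe3 in high-collagen gels with IL-4. For all members, rescaling gave 19 calls above and 12 below plates for high-collagen gels without IL-4, 23 and 8 with IL-4 for low collagen, and 19 and 10 with IL-4 for high collagen, where 36.3%, 36.0% and 36.9% of all genes were higher and 37.3%, 36.1% and 37.1% lower. In the same order, the correction gave 20 and 12, 21 and 12, and 18 and 13, beside 37.2%, 34.1% and 35.7% of all genes higher and 36.9%, 38.1% and 39.2% lower.

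Across the 4 comparisons with plates, 14 members were called higher in every one and 10 lower in every one, beside 16.0% and 35.1% of all genes. Under all 3 scalings, 13 stayed among those higher: Lamp1, Lamp2, Cd63, Laptm5, Scarb2, Hexa, Glb1, Man2b1, Gaa, Psap, Gm2a, Npc2 and Lgmn. Leaving out each library in turn ended a call of Gaa and of Tfeb among the 14 and none among the 10. The 6 that stayed among those lower under all 3 scalings were Gusb, Atp6v0c, Atp6ap2, Atp6v1a, Atp6v1c1 and Atp6v1h. The 8 neutrophil markers summed to 5.25 to 10.6 TPM on plates and 14.6 to 34.6 TPM in gels, with 2 to 4 of them at 1 TPM or more and Ly6g at 0 in every library. The 4 B cell markers summed to 0.982 to 1.93 TPM on plates and 4.38 to 6.82 TPM in gels. The part of these cells in the differences from plates was not tested.

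**Figure D3:**
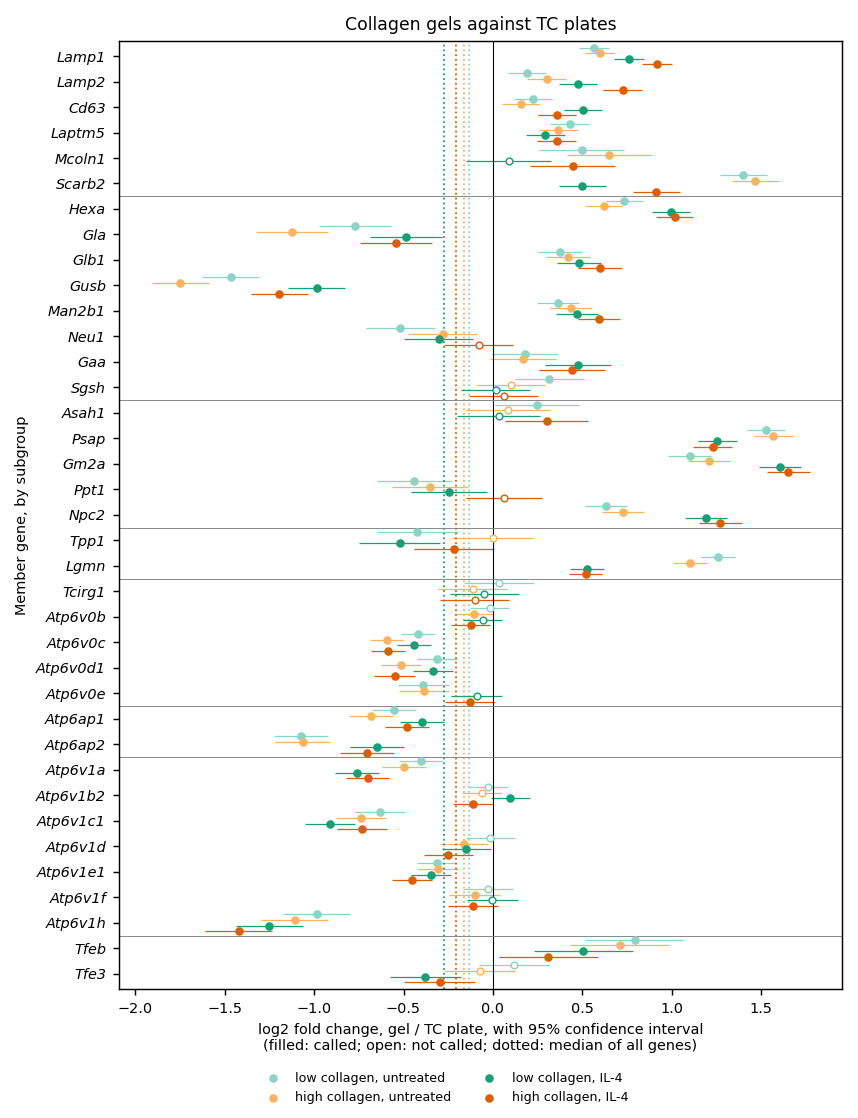
Log2 fold change of each member (y axis) in gels against TC plates (x axis, with 95% confidence interval) for low and high collagen, without and with IL-4, where filled points are called and dotted lines mark the median of all genes. Points of membrane proteins lie to the right of 0 and most of those of the V-ATPase to the left, while the dotted lines lie at −0.13 to −0.28.

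Fewer members were called between collagen densities. With IL-4, 13 members were called between high- and low-collagen gels, 8 higher and 5 lower, where 21.1% of all genes were called (14.1% higher and 6.99% lower). Higher in high-collagen gels were Lamp1, Lamp2, Mcoln1, Scarb2, Asah1, Ppt1, Tpp1 and Atp6v1c1, and lower were Cd63, Gusb, Atp6v0c, Atp6v0d1 and Atp6v1b2. Rescaling turned the split of the members to 4 higher and 7 lower and the GC and length correction to 5 and 5. All genes turned with them, to 9.83% higher and 11.7% lower after rescaling and 10.6% and 10.9% with the correction. Under all 3 scalings, Mcoln1, Scarb2 and Ppt1 were called higher and Gusb, Atp6v0c, Atp6v0d1 and Atp6v1b2 lower. Leaving out high-collagen IL-4 replicate 1 or low-collagen IL-4 replicate 1 left 3 calls, leaving out replicate 2 of either left 2, and Lamp2 and Scarb2 were called in each case. In the same fits 6.02% to 12% of all genes were called, so the members' counts were then near the share of all genes.

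Without IL-4, 6 members were called between gels, 1 higher (Tpp1) and 5 lower (Gla, Gusb, Lgmn, Atp6v0c and Atp6v0d1), where 8.02% of all genes were called (3.23% higher and 4.79% lower). Rescaling left Tpp1 higher and Gusb lower, where 3.73% of all genes were higher and 3.61% lower. Without high-collagen untreated replicate 1 or 2 no member was called, and without low-collagen untreated replicate 1 or 2 the counts were 2 and 1, where 1.17% to 5.48% of all genes were called over the 4 fits. Here limma found 8 members at an unadjusted p under 0.05, beside 15.7% of all genes.

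**Figure D4:**
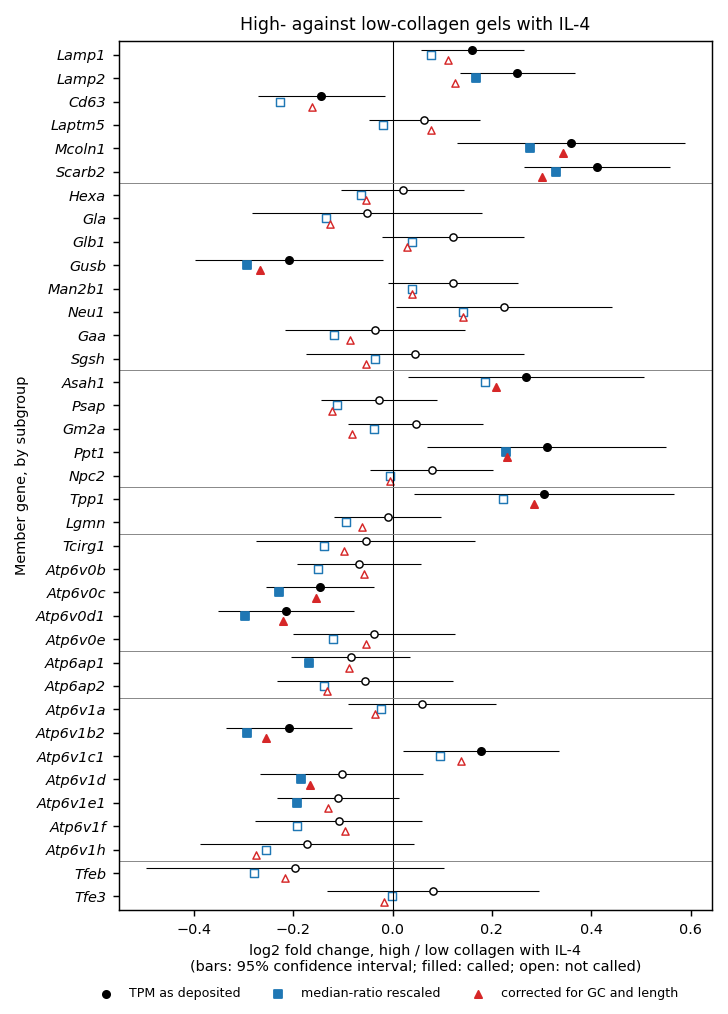
Log2 fold change of each member (y axis) in high- against low-collagen gels with IL-4 (x axis), for TPM as deposited (circles, with 95% confidence interval), after median-ratio rescaling (squares) and with the GC and length correction (triangles), where filled symbols are called. Scarb2, Mcoln1 and Ppt1 are filled to the right of 0 and Gusb, Atp6v0c, Atp6v0d1 and Atp6v1b2 to the left under all 3, while Lamp1, Lamp2, Asah1, Tpp1, Cd63 and Atp6v1c1 are not filled under all 3.

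The IL-4 response itself was compared between substrates by a test of the difference. Between high- and low-collagen gels, limma called 0 members, where 0.363% of all genes were called. At an unadjusted p under 0.05 there were 4 of 37 members, beside 9.88% of all genes, and the smallest adjusted p was 0.35, for Scarb2. Between low-collagen gels and plates 20 members were called, 11 with a higher response in gels and 9 with a lower one, where 28.0% of all genes were called (9.3% and 18.7%). Between high-collagen gels and plates 17 were called, 12 higher and 5 lower, where 17.3% were called (8.66% and 8.61%). These 2 comparisons share the plate libraries. Rescaling gave 17 higher and 4 lower for low-collagen gels and 14 and 3 for high-collagen gels. The correction gave 15 and 6 for low-collagen gels and 11 and 4 for high-collagen gels. Among all genes the shares, in the same order, were 14.9% higher and 9.91% lower, 11.1% and 6.97%, 12.5% and 13%, and 10.2% and 10.1%. Under all 3 scalings 15 and 12 calls remained. For low-collagen gels these were Lamp1, Lamp2, Cd63, Hexa, Gla, Gusb, Gaa, Gm2a, Npc2, Atp6v0e and Atp6ap2 higher and Scarb2, Lgmn, Atp6v1a and Tfe3 lower. For high-collagen gels they were Lamp1, Lamp2, Hexa, Gla, Gusb, Gm2a, Ppt1, Npc2 and Atp6ap2 higher and Scarb2, Psap and Lgmn lower. The 17 calls fell to 11 without plate IL-4 replicate 2 or high-collagen IL-4 replicate 1.

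Among the membrane proteins, Lamp1 rose with IL-4 and with culture in gels. It encodes one of the 2 main glycoproteins of the lysosomal membrane and lies on chromosome 8 from 13159161 to 13175338 of GRCm38. Lamp1 was at 1477 and 1497 TPM on plates and 1652 and 1638 TPM there with IL-4, at 2235 and 2168 TPM in low-collagen gels and 2784 and 2784 TPM with IL-4, and at 2234 and 2274 TPM in high-collagen gels and 3124 and 3099 TPM with IL-4. Every gel library was above every plate library, and on each substrate the IL-4 libraries were above the untreated ones. The log2 fold change with IL-4 was 0.15 (SE 0.0373, adjusted p = 0.0189) on plates, 0.34 (SE 0.0445, adjusted p = 0.00113) in low-collagen and 0.47 (SE 0.0445, adjusted p = 0.00037) in high-collagen gels, and the rise in gels exceeded that on plates by 0.19 and 0.32. Against plates it was higher by 0.57 and 0.60 in low- and high-collagen gels and by 0.76 and 0.92 with IL-4.

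Lamp2, the other main glycoprotein, which has splice forms that take part in autophagy, fell with IL-4 on plates. It was at 449 and 445 TPM on plates and 338 and 362 TPM there with IL-4, at 499 and 521 TPM in low-collagen gels and 493 and 479 TPM with IL-4, and at 552 and 548 TPM in high-collagen gels and 580.1 and 577 TPM with IL-4. The plate libraries with IL-4 were the lowest and the high-collagen libraries with IL-4 the highest. On the log2 scale the difference with IL-4 was −0.35 (SE 0.0478, adjusted p = 0.000517) on plates, and it was not called in low-collagen gels (−0.07, adjusted p = 0.32) or high-collagen gels (0.07, adjusted p = 0.366). The response differed from that on plates by 0.28 (SE 0.0675, adjusted p = 0.0277) and 0.42 (SE 0.0675, adjusted p = 0.00546). With IL-4, Lamp2 was higher in high- than in low-collagen gels by 0.25 (SE 0.0501, adjusted p = 0.0353). That call did not hold under all 3 scalings.

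Cd63, a tetraspanin of late endosomes and lysosomes, was at 845 and 848 TPM on plates and 1024 and 1009 TPM there with IL-4, at 1019 and 960.1 TPM in low-collagen gels and 1402 and 1479.7 TPM with IL-4, and at 936 and 949.9 TPM in high-collagen gels and 1328 and 1281 TPM with IL-4. IL-4 libraries were above untreated ones on each substrate, with log2 fold changes of 0.26, 0.54 and 0.47 on plates, in low- and in high-collagen gels. Of the 31-base words in its transcripts, 15.9% are found in another gene too, 13.4% in the pseudogene Cd63-ps, so some of its reads could have been divided. Laptm5, a lysosomal membrane protein of blood cells, ranged from 1083 to 1713 TPM, fell with IL-4 by 0.20, 0.34 and 0.21 on the log2 scale on plates, in low- and in high-collagen gels, and was higher in gels than on plates by 0.29 to 0.43.

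Scarb2 had the largest fall with IL-4 of the 37 members in both gels. It encodes LIMP-2, the receptor that carries β-glucocerebrosidase to lysosomes, and lies on chromosome 5 from 92441314 to 92506833. Scarb2 was at 64.96 and 67.9 TPM on plates and 57.7 and 59.9 TPM there with IL-4, at 174 and 180.1 TPM in low-collagen gels and 85.7 and 81.4 TPM with IL-4, and at 184 and 187 TPM in high-collagen gels and 109 and 114 TPM with IL-4. Untreated gel libraries were the highest, and the plate libraries with IL-4 the lowest. The IL-4 fold change on the log2 scale was −1.07 (SE 0.0631, adjusted p = 2.05e-05) in low-collagen gels, −0.73 (SE 0.0631, adjusted p = 0.000223) in high-collagen gels and −0.17 (SE 0.0585, adjusted p = 0.0615) on plates. The fall in gels was larger than on plates, with differences of −0.90 (SE 0.0828, adjusted p = 0.000236) and −0.56 (SE 0.0828, adjusted p = 0.00389). Even so, with IL-4 Scarb2 was higher in gels than on plates, by 0.50 and 0.91, and it was higher in high- than in low-collagen gels by 0.41 (SE 0.0631, adjusted p = 0.0188). Without IL-4 the difference between gels was not called (0.07, adjusted p = 0.667).

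Mcoln1, which encodes the lysosomal cation channel TRPML1, fell with IL-4 in both gels. It was at 70.8 and 69.5 TPM on plates and 57.7 and 69.2 TPM there with IL-4, at 94.6 and 104 TPM in low-collagen gels and 66.3 and 68.05 TPM with IL-4, and at 119 and 102 TPM in high-collagen gels and 81.4 and 91.8 TPM with IL-4. In each gel the IL-4 libraries were below the untreated ones, with log2 fold changes of −0.56 (SE 0.0991, adjusted p = 0.00495) and −0.35 (SE 0.0991, adjusted p = 0.0501). On plates the change was not called (−0.15, adjusted p = 0.368), and the difference between the low-collagen and plate responses was called (−0.41, adjusted p = 0.118) except after rescaling (−0.26).

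**Figure D5:**
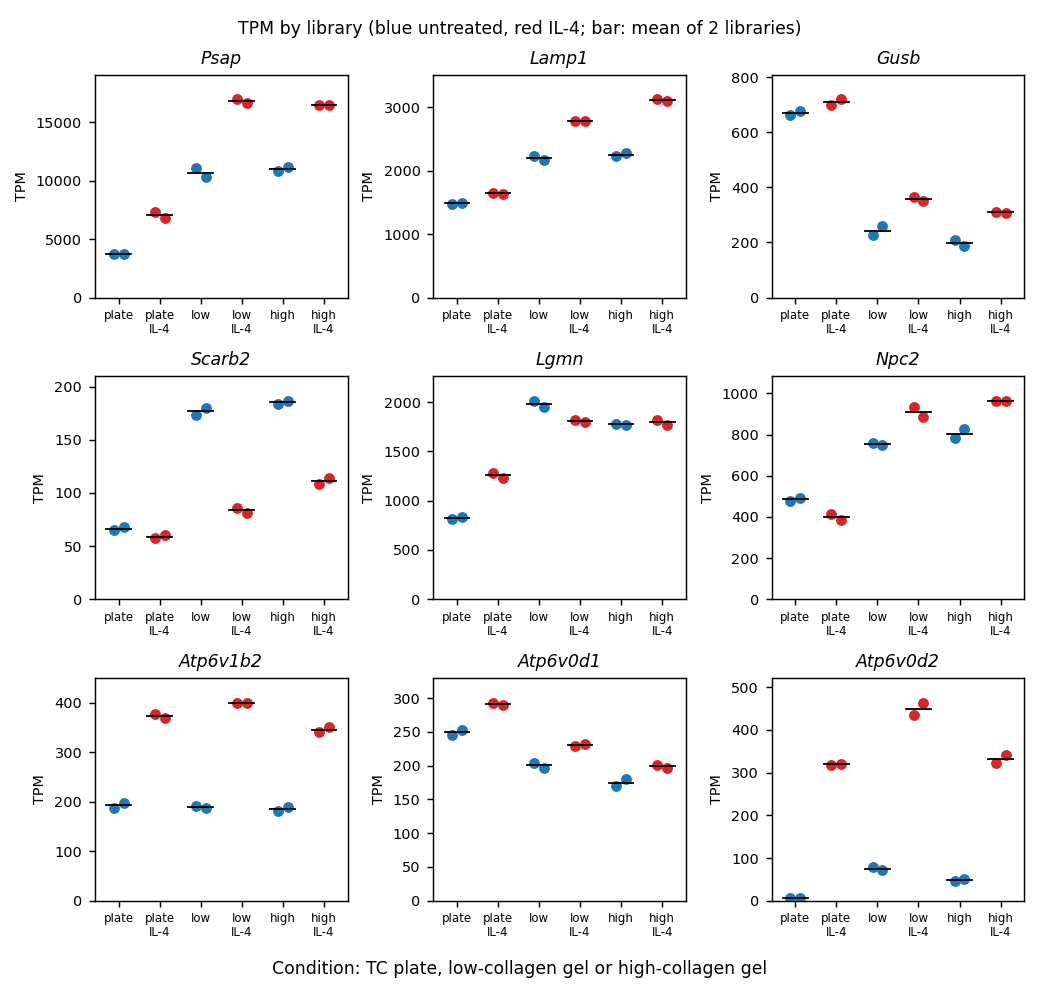
TPM of 8 members and of Atp6v0d2 in each of the 12 libraries (y axis, linear and starting at 0) by condition (x axis), in blue for untreated and in red for IL-4, with a bar at the mean of 2 libraries. Psap and Lamp1 rise with gels and with IL-4, Gusb is highest on plates, Scarb2 falls with IL-4, and Atp6v1b2 and Atp6v0d2 rise with IL-4 on each substrate.

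The glycan hydrolases divided by substrate. Gusb, β-glucuronidase, which removes glucuronic acid from glycosaminoglycans, had the largest difference from plates of the glycan hydrolases without IL-4. It lies on chromosome 5 from 129989011 to 130003049. Gusb was at 663 and 677 TPM on plates and 700.4 and 719.9 TPM there with IL-4, at 227 and 259 TPM in low-collagen gels and 366 and 351 TPM with IL-4, and at 209.7 and 188 TPM in high-collagen gels and 312 and 308 TPM with IL-4. Every plate library was above every gel library. The log2 fold change against plates was −1.47 (SE 0.0711, adjusted p = 2.01e-07) in low- and −1.75 (SE 0.0711, adjusted p = 5.9e-08) in high-collagen gels, and −0.99 and −1.19 with IL-4. IL-4 raised Gusb by 0.56 (SE 0.0815, adjusted p = 0.00181) in low- and 0.64 (SE 0.0815, adjusted p = 0.00157) in high-collagen gels, and the change on plates (0.08, adjusted p = 0.459) was not called. The gel responses were larger than the plate response by 0.48 and 0.55. Between gels, Gusb was lower at high than at low collagen, by log2 fold changes of −0.21 with IL-4 and −0.28 without.

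Gla, α-galactosidase A, which removes galactose from globotriaosylceramide, was also higher on plates. It was at 115 and 122 TPM on plates and 124 and 128 TPM there with IL-4, at 67.1 and 70.95 TPM in low-collagen gels and 89.8 and 89.4 TPM with IL-4, and at 49.8 and 58.3 TPM in high-collagen gels and 92.7 and 80.6 TPM with IL-4. Plate libraries were above all gel libraries, and in each gel IL-4 libraries were above untreated ones. Its log2 fold change with IL-4 was 0.37 (SE 0.0998, adjusted p = 0.0264) in low- and 0.67 (SE 0.0998, adjusted p = 0.0033) in high-collagen gels and was not called on plates (0.09, adjusted p = 0.537). Against plates Gla was lower by 0.77 and 1.12 on the log2 scale in low- and high-collagen gels, and by 0.49 and 0.54 with IL-4, though after the GC and length correction the last but one was not called (−0.11).

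Hexa, the α subunit of β-hexosaminidase, was higher in gels. It was at 859 and 880.2 TPM on plates and 830.3 and 816 TPM there with IL-4, at 1487 and 1408 TPM in low-collagen gels and 1624 and 1661 TPM with IL-4, and at 1302 and 1371 TPM in high-collagen gels and 1642 and 1689.8 TPM with IL-4. Every gel library was above every plate library, by log2 fold changes of 0.73 and 0.62, and of 1.00 and 1.02 with IL-4. IL-4 raised Hexa in low- (0.18) and high-collagen gels (0.32), and the value on plates was below 0 and not called (−0.08, adjusted p = 0.271).

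Glb1, lysosomal β-galactosidase, was at 113 and 116 TPM on plates and 123 and 127 TPM there with IL-4, at 151 and 147 TPM in low-collagen gels and 181 and 169 TPM with IL-4, and at 156 and 151 TPM in high-collagen gels and 189 and 192 TPM with IL-4. IL-4 libraries were above untreated ones on each substrate, with log2 fold changes of 0.13, 0.23 and 0.31 on plates and in low- and high-collagen gels. Against plates Glb1 was higher in gels by 0.38 to 0.60. Glb1 shares 4.5% of its 31-base words with Tmppe.

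Gaa, which releases glucose from glycogen, was at 68.9 and 79.3 TPM on plates and 73.96 and 75.5 TPM there with IL-4, at 81.6 and 86.2 TPM in low-collagen gels and 111 and 97.9 TPM with IL-4, and at 82.5 and 83.7 TPM in high-collagen gels and 102 and 101 TPM with IL-4. It rose with IL-4 in low- (0.31) and high-collagen gels (0.29), and on plates the values of both treatments overlapped. Sgsh, which removes sulfate from heparan sulfate, was at 39.6 and 42.3 TPM on plates and 28.6 and 29.1 TPM there with IL-4, at 49.97 and 52.4 TPM in low-collagen gels and 31.6 and 26.9 TPM with IL-4, and at 44.4 and 43.3 TPM in high-collagen gels and 30.5 and 29.8 TPM with IL-4. Its IL-4 libraries were below its untreated libraries on each substrate, by log2 fold changes of −0.79 (SE 0.0942, adjusted p = 0.000715) and −0.53 (SE 0.0942, adjusted p = 0.00779) in low- and high-collagen gels and −0.49 (SE 0.0853, adjusted p = 0.00242) on plates.

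Man2b1, a lysosomal α-mannosidase, ranged from 307 to 523 TPM and was higher in gels by 0.37 to 0.59. With IL-4 it fell by 0.25 on plates and 0.15 in low-collagen gels on the log2 scale, the latter with the opposite sign after rescaling (0.07) and after the GC and length correction (0.02). Neu1, a sialidase, ranged from 70.8 to 116 TPM and fell with IL-4 on plates by 0.36.

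Among the lipid-handling genes, Psap had the highest level. It lies on chromosome 10 from 60277627 to 60302597. Psap was at 3696 and 3723 TPM on plates and 7287 and 6809.6 TPM there with IL-4, at 11054 and 10335 TPM in low-collagen gels and 16978 and 16646 TPM with IL-4, and at 10847 and 11152 TPM in high-collagen gels and 16524 and 16462 TPM with IL-4. The conditions fell in 4 steps with no overlap, from plates, to plates with IL-4, to gels, to gels with IL-4. With IL-4 the log2 difference was 0.93 (SE 0.0477, adjusted p = 8.35e-07) on plates, 0.65 (SE 0.0501, adjusted p = 7.7e-05) in low- and 0.58 (SE 0.0501, adjusted p = 0.00021) in high-collagen gels. The plate response was larger than both gel responses, whose differences from it were −0.27 (SE 0.0675, adjusted p = 0.0325) and −0.34 (SE 0.0675, adjusted p = 0.0164), of which the former was not called after either alternative scaling. In low-collagen gels Psap was above plates by 1.53 without and 1.25 with IL-4. Between high- and low-collagen gels the difference was −0.03 (95% confidence interval −0.14 to 0.09, adjusted p = 0.782) with IL-4 and 0.04 (95% confidence interval −0.07 to 0.16, adjusted p = 0.745) without, neither of them called. Psap shares none of its 31-base words with another gene.

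Gm2a encodes the activator that lifts GM2 ganglioside out of the membrane for hexosaminidase. It was at 90.5 and 91.2 TPM on plates and 98.4 and 94.2 TPM there with IL-4, at 203 and 189 TPM in low-collagen gels and 299 and 291 TPM with IL-4, and at 208 and 214 TPM in high-collagen gels and 305 and 304 TPM with IL-4. Gel libraries were above plate libraries by log2 fold changes of 1.10 (SE 0.0532, adjusted p = 2.01e-07) and 1.21 (SE 0.0532, adjusted p = 9.92e-08), and of 1.60 (SE 0.0532, adjusted p = 4.47e-08) and 1.65 (SE 0.0532, adjusted p = 2.51e-08) with IL-4. IL-4 raised Gm2a in low- (0.59) and high-collagen gels (0.53). On plates it did not pass (0.08, adjusted p = 0.311), and the gel responses were larger than the plate response by 0.50 (SE 0.0753, adjusted p = 0.00309) and 0.44 (SE 0.0753, adjusted p = 0.00747). Hexa and Gm2a, which act on the same ganglioside, were both called higher in each gel than on plates and higher with IL-4 in gels.

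Npc2, the soluble carrier that passes cholesterol to the lysosomal membrane, moved with IL-4 in opposite directions. It was at 476 and 494 TPM on plates and 413 and 384 TPM there with IL-4, at 757 and 748 TPM in low-collagen gels and 936 and 887 TPM with IL-4, and at 781 and 826 TPM in high-collagen gels and 961 and 964 TPM with IL-4. On plates the IL-4 libraries were below the untreated ones, and in each gel they were above. The log2 fold change with IL-4 was −0.28 (SE 0.0526, adjusted p = 0.0034) on plates, 0.28 (SE 0.0532, adjusted p = 0.00715) in low- and 0.26 (SE 0.0532, adjusted p = 0.014) in high-collagen gels. The differences between responses were 0.56 (SE 0.0744, adjusted p = 0.00167) and 0.55 (SE 0.0744, adjusted p = 0.00263), and the opposite signs held under all 3 scalings.

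Asah1, acid ceramidase, was at 346 and 371 TPM on plates and 292 and 336 TPM there with IL-4, at 383 and 472 TPM in low-collagen gels and 339.8 and 302 TPM with IL-4, and at 386 and 374 TPM in high-collagen gels and 394 and 378 TPM with IL-4. IL-4 lowered it in low-collagen gels (−0.41, adjusted p = 0.0202), where low-collagen untreated replicate 2 was the highest library, and changes in high-collagen gels (0.02, adjusted p = 0.906) and on plates (−0.19, adjusted p = 0.228) were not called. Ppt1, which removes palmitate from proteins, was at 147 and 136 TPM on plates and 119 and 121 TPM there with IL-4, at 94.6 and 115 TPM in low-collagen gels and 106 and 96.3 TPM with IL-4, and at 107 and 116 TPM in high-collagen gels and 129 and 122 TPM with IL-4. On the log2 scale the difference with IL-4 was −0.24 on plates (adjusted p = 0.104), and the response in high-collagen gels was higher than on plates by 0.41 (adjusted p = 0.108).

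The protease Lgmn, legumain, which cleaves after asparagine and matures other lysosomal proteases, rose with IL-4 on plates. It lies on chromosome 12 from 102394084 to 102439813. Lgmn was at 816 and 839 TPM on plates and 1284 and 1229 TPM there with IL-4, at 2014 and 1948 TPM in low-collagen gels and 1823 and 1798 TPM with IL-4, and at 1779 and 1772 TPM in high-collagen gels and 1825 and 1772 TPM with IL-4. Every gel library was above every plate library, and on plates the IL-4 libraries were above the untreated ones. The IL-4 fold change on the log2 scale was 0.60 (SE 0.0423, adjusted p = 6.18e-06) on plates, −0.13 (SE 0.0462, adjusted p = 0.0687) in low-collagen gels, where rescaling turned the sign (0.09), and 0.02 (SE 0.0462, adjusted p = 0.823) in high-collagen gels, which was not called. The gel responses differed from the plate response by −0.73 (SE 0.0598, adjusted p = 0.000144) and −0.58 (SE 0.0598, adjusted p = 0.00061). Against plates Lgmn was higher by 1.26 and 1.10 in low- and high-collagen gels, and by 0.53 and 0.52 with IL-4.

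Tpp1, which removes tripeptides from the ends of proteins, was at 382 and 383 TPM on plates and 480.4 and 499 TPM there with IL-4, at 258 and 315 TPM in low-collagen gels and 361 and 321 TPM with IL-4, and at 399 and 366 TPM in high-collagen gels and 449 and 395 TPM with IL-4. Low-collagen untreated libraries were the lowest. With IL-4 the log2 difference was 0.36 (SE 0.1004, adjusted p = 0.0295) on plates, 0.26 (SE 0.113, adjusted p = 0.122) in low-collagen gels and 0.14 (SE 0.113, adjusted p = 0.442) in high-collagen gels, the last not called. Tpp1 was higher in high- than in low-collagen gels without IL-4 (0.42, adjusted p = 0.139) and with IL-4 (0.30, adjusted p = 0.164).

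In the V-ATPase, IL-4 raised 10 of 14 genes in low-collagen gels, 10 in high-collagen gels and 8 on plates, and lowered 2, 1 and 2. Among all genes 13.2%, 11.5% and 14.7% were called higher and 40.4%, 22.8% and 24.0% lower. Atp6v1b2 rose with IL-4 more than any other member on each substrate. It encodes the B subunit of V1 that most tissues use and lies on chromosome 8 from 69088646 to 69113711. Atp6v1b2 was at 188 and 198 TPM on plates and 378 and 369 TPM there with IL-4, at 191 and 187 TPM in low-collagen gels and 399 and 401 TPM with IL-4, and at 181 and 189.6 TPM in high-collagen gels and 341 and 350.1 TPM with IL-4. All IL-4 libraries were above all untreated ones, whichever the substrate. Its log2 fold change with IL-4 was 0.95 (SE 0.0498, adjusted p = 9.54e-07) on plates, 1.08 (SE 0.0545, adjusted p = 9.03e-06) in low- and 0.90 (SE 0.0545, adjusted p = 3.77e-05) in high-collagen gels. Neither gel response was called as different from the plate response, the differences being 0.13 (95% confidence interval −0.03 to 0.29, adjusted p = 0.282) and −0.05 (95% confidence interval −0.21 to 0.11, adjusted p = 0.747). With IL-4 Atp6v1b2 was lower in high- than in low-collagen gels (−0.21, adjusted p = 0.0734).

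Atp6v1a encodes the A subunit, which with the B subunit forms the ATP-hydrolyzing head. It was at 289 and 287 TPM on plates and 458 and 468 TPM there with IL-4, at 208 and 227 TPM in low-collagen gels and 276 and 269.7 TPM with IL-4, and at 198 and 209 TPM in high-collagen gels and 285 and 284 TPM with IL-4. The plate libraries with IL-4 were the highest. With IL-4 the log2 difference was 0.69 (SE 0.0545, adjusted p = 1.47e-05) on plates, 0.33 (SE 0.0639, adjusted p = 0.0075) in low- and 0.48 (SE 0.0639, adjusted p = 0.00187) in high-collagen gels, and the gel responses differed from the plate response by −0.36 (adjusted p = 0.0176) and −0.20 (adjusted p = 0.172).

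Atp6v1h, the H subunit, which regulates the coupling of the sectors, had the largest difference from plates with IL-4 among the 14 V-ATPase members. It was at 113 and 113 TPM on plates and 165 and 180.1 TPM there with IL-4, at 58.1 and 54.7 TPM in low-collagen gels and 70.4 and 73.3 TPM with IL-4, and at 56.3 and 47.5 TPM in high-collagen gels and 63.8 and 63.4 TPM with IL-4. Every plate library was above every gel library. Against plates the log2 difference was −0.99 (SE 0.0841, adjusted p = 6.14e-06) and −1.11 (SE 0.0841, adjusted p = 2.58e-06) in low- and high-collagen gels, and −1.25 (SE 0.0841, adjusted p = 1.74e-06) and −1.42 (SE 0.0841, adjusted p = 6.94e-07) with IL-4. IL-4 raised it by 0.61 on plates, 0.34 in low- and 0.29 in high-collagen gels.

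Atp6v1c1, the C subunit of the stalk, was at 201 and 193 TPM on plates and 243 and 259 TPM there with IL-4, at 125 and 128 TPM in low-collagen gels and 132 and 135 TPM with IL-4, and at 112 and 124 TPM in high-collagen gels and 149 and 152 TPM with IL-4. Every plate library was above every gel library, and log2 fold changes of gels against plates lay between −0.63 and −0.91. IL-4 raised it on plates (0.35) and in high-collagen gels (0.35), and the value in low-collagen gels was not called (0.07, adjusted p = 0.469). Of the other V1 subunits, Atp6v1d (90.3 to 129 TPM) and Atp6v1e1 (187 to 302 TPM) rose with IL-4 on each substrate, by 0.17 to 0.33. Atp6v1f (293 to 336 TPM) was not called with IL-4 on any, with log2 fold changes between −0.01 and 0.02. The Atp6v1f transcripts share 18.4% of their 31-base words with AC169506.3, so its reads could have been divided.

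Among the V0 genes, Atp6v0c, the c subunit of the ring that carries protons, had the highest level. It was at 1591 and 1664 TPM on plates and 2128 and 2067 TPM there with IL-4, at 1222 and 1213 TPM in low-collagen gels and 1536 and 1556 TPM with IL-4, and at 1093 and 1067 TPM in high-collagen gels and 1423 and 1373 TPM with IL-4. IL-4 libraries were above untreated ones on each substrate, by 0.37 (SE 0.0424, adjusted p = 0.000182) on plates, 0.34 (SE 0.0467, adjusted p = 0.00132) in low- and 0.37 (SE 0.0467, adjusted p = 0.00147) in high-collagen gels. Every plate library was above every gel library at the same treatment, and gels differed from plates by log2 fold changes of −0.42 and −0.59, and of −0.44 and −0.58 with IL-4. It shares 11.9% of its 31-base words with the pseudogene Atp6v0c-ps2.

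Atp6v0b, the c″ subunit of the same ring, went the other way with IL-4. It was at 553 and 539.6 TPM on plates and 462 and 442 TPM there with IL-4, at 554 and 525 TPM in low-collagen gels and 425 and 444 TPM with IL-4, and at 512 and 503 TPM in high-collagen gels and 412 and 417 TPM with IL-4. IL-4 libraries were below untreated ones on each substrate, by log2 fold changes of −0.27 (SE 0.0484, adjusted p = 0.00276) on plates, −0.31 (SE 0.0539, adjusted p = 0.00438) in low- and −0.29 (SE 0.0539, adjusted p = 0.00928) in high-collagen gels. After rescaling Atp6v0b was called lower with IL-4 on plates and in neither gel.

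Atp6v0d1, the d subunit that most cells use, was at 246 and 253 TPM on plates and 293 and 289.6 TPM there with IL-4, at 204 and 197 TPM in low-collagen gels and 229.6 and 232 TPM with IL-4, and at 169 and 179.8 TPM in high-collagen gels and 201 and 197 TPM with IL-4. It rose with IL-4 by 0.22, 0.20 and 0.19 on plates and in low- and high-collagen gels, and was lower in high- than in low-collagen gels with (−0.21, adjusted p = 0.0839) and without IL-4 (−0.20, adjusted p = 0.166). Atp6v0e, the e subunit, was at 431 and 450.2 TPM on plates and 454 and 465 TPM there with IL-4, at 356 and 317 TPM in low-collagen gels and 416 and 447 TPM with IL-4, and at 335 and 339.9 TPM in high-collagen gels and 415 and 425 TPM with IL-4. IL-4 raised it in low- (0.36) and high-collagen gels (0.32), with a larger response than on plates by 0.30 and 0.26. Tcirg1, the a subunit used in osteoclasts and macrophages, ranged from 472 to 626 TPM and was called once, lower with IL-4 in low-collagen gels (−0.20, adjusted p = 0.152), where rescaling turned its sign (0.02).

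Both accessory proteins of the pump were higher on plates. Atp6ap2, also known as the prorenin receptor, was at 269 and 261 TPM on plates and 218 and 229.6 TPM there with IL-4, at 118 and 133 TPM in low-collagen gels and 145 and 141 TPM with IL-4, and at 130.5 and 122 TPM in high-collagen gels and 139.6 and 135 TPM with IL-4. Every plate library was above every gel library. The log2 fold change against plates was −1.07 (SE 0.0676, adjusted p = 9.27e-07) and −1.06 (SE 0.0676, adjusted p = 8.54e-07) in low- and high-collagen gels, and −0.65 and −0.70 with IL-4. IL-4 lowered it on plates (−0.24, adjusted p = 0.029) and raised it in low-collagen gels (0.18, adjusted p = 0.105), and the difference between these responses was 0.42 (SE 0.0955, adjusted p = 0.0215). It shares 7.38% of its 31-base words with Gm36448. Atp6ap1, which assists assembly of V0, was at 538 and 485 TPM on plates and 499.7 and 501 TPM there with IL-4, at 341 and 353 TPM in low-collagen gels and 384 and 376 TPM with IL-4, and at 315 and 322 TPM in high-collagen gels and 359 and 358 TPM with IL-4. It was lower in gels by log2 fold changes of −0.68 to −0.40 and rose with IL-4 in low- (0.13) and high-collagen gels (0.17).

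With IL-4 in low-collagen gels, Tfeb rose and Tfe3 fell. Tfeb was at 17.6 and 20.04 TPM on plates and 29.5 and 27.7 TPM there with IL-4, at 30.6 and 36.1 TPM in low-collagen gels and 40.2 and 41.9 TPM with IL-4, and at 27.9 and 35.1 TPM in high-collagen gels and 34.01 and 37.4 TPM with IL-4. Plate libraries without IL-4 were the lowest. The log2 fold change with IL-4 was 0.58 (SE 0.124, adjusted p = 0.00757) on plates, 0.29 (SE 0.129, adjusted p = 0.121) in low-collagen gels and 0.18 (SE 0.129, adjusted p = 0.38) in high-collagen gels, the last not called. Tfeb was higher in gels than on plates by 0.79 and 0.71, and by 0.51 and 0.31 with IL-4. Tfe3 was at 75.6 and 82.5 TPM on plates and 76.9 and 70.9 TPM there with IL-4, at 91.2 and 81.01 TPM in low-collagen gels and 55.5 and 57.6 TPM with IL-4, and at 72.04 and 78.1 TPM in high-collagen gels and 56.6 and 63.3 TPM with IL-4. In each gel the IL-4 libraries were below the untreated ones, with log2 fold changes of −0.60 (SE 0.0917, adjusted p = 0.00249) and −0.32 (SE 0.0917, adjusted p = 0.0523) in low- and high-collagen gels. On plates the values overlapped (−0.10, adjusted p = 0.497). With IL-4 Tfe3 was lower in gels than on plates (−0.38 and −0.30), calls that rescaling ended (−0.07 and −0.07).

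Other genes of the lysosome were taken as 5 lists of 95 genes, of which 87 entered the tests. Their values are for TPM as deposited. The alternative scalings and the fits without one library were not examined for these lists. With IL-4 in low-collagen gels 23 of the 87 rose and 30 fell, in high-collagen gels 21 rose and 15 fell, and on plates 30 rose and 19 fell, with median log2 fold changes of −0.06, 0.02 and 0.01. These were 60.9%, 41.4% and 56.3% of the 87 called, where 53.6%, 34.3% and 38.8% of all genes were called (13.2%, 11.5% and 14.7% higher and 40.4%, 22.8% and 24.0% lower). Of the 26 other hydrolases and cofactors, 8, 9 and 9 rose and 8, 4 and 5 fell in these comparisons. Of the 21 other membrane proteins, 6, 5 and 8 rose and 7, 5 and 6 fell. Of the 13 genes that sort proteins to the lysosome, such as mannose 6-phosphate receptors, 4, 1 and 3 rose and 4, 2 and 3 fell. Of the 5 other V-ATPase genes, 2 rose in each comparison and 2, 0 and 1 fell. Of the 22 other MiT factors (the family of Tfeb) and regulators of them, 3, 4 and 8 rose and 9, 4 and 4 fell. Between gels and plates, 28, 23, 23 and 22 of the 87 were higher and 44, 48, 51 and 48 lower, in the order used above. Of the 87, 82.8%, 81.6%, 85.1% and 80.5% were called, near the 72.8%, 73.5%, 75.1% and 74.6% of all genes, of which 44.3%, 45.5%, 52.2% and 48.1% were lower. Among the 87, 10, 10, 11 and 10 of the 13 sorting genes were lower and 2, 2, 1 and 2 higher.

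Of these genes, Acp5, a tartrate-resistant phosphatase, had the largest rise with IL-4 among the hydrolases in low-collagen gels. It was at 1.49 and 2.22 TPM on plates and 11.5 and 9.90 TPM there with IL-4, at 2.85 and 2.14 TPM in low-collagen gels and 13.9 and 13.5 TPM with IL-4, and at 3.996 and 3.11 TPM in high-collagen gels and 21.1 and 19.4 TPM with IL-4. Its log2 fold change with IL-4 was 2.08, 2.23 and 2.04 in low- and high-collagen gels and on plates, and with IL-4 it was higher in high- than in low-collagen gels (0.53, adjusted p = 0.107). Slc11a1, the phagosomal metal transporter NRAMP1, had the largest fall among the membrane proteins. It was at 357 and 326 TPM on plates and 138 and 129 TPM there with IL-4, at 432 and 399.9 TPM in low-collagen gels and 163 and 157 TPM with IL-4, and at 484 and 472 TPM in high-collagen gels and 258 and 231 TPM with IL-4. IL-4 libraries were below untreated ones on each substrate (−1.37 in low-collagen gels, −0.97 in high-collagen gels and −1.35 on plates). With IL-4, Slc11a1 was higher in high- than in low-collagen gels (0.61, adjusted p = 0.00986). Cd68, a lysosomal glycoprotein of macrophages, had the largest rise among the membrane proteins, from 1771 and 1826 TPM to 2615 and 2622 TPM in low-collagen gels (0.54).

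Among the others named by rule, Arsb, arylsulfatase B, had the largest fall of the hydrolases with IL-4 in low-collagen gels, from 24.97 and 27.3 TPM to 17.3 and 14.7 TPM (−0.68). Sort1, the sorting receptor sortilin, was at 18.8 and 21.03 TPM in low-collagen gels and 12.4 and 12.5 TPM with IL-4 (−0.64), and at 23.3 and 24.00 TPM in high-collagen gels with IL-4, above low-collagen gels by 0.88 (SE 0.0959, adjusted p = 0.00933). Nagpa, the enzyme that uncovers the mannose 6-phosphate tag, was at 41.2 and 48.1 TPM and with IL-4 at 59.1 and 55.6 TPM in low-collagen gels (0.36), against 44.4 and 44.3 TPM in high-collagen gels with IL-4 (−0.36). With IL-4, Laptm4b was higher in high- than in low-collagen gels (0.71), as was the calcineurin subunit Ppp3cb (0.38), and the channel Tpcn2 was lower (−0.43). Ppp3cb also had the largest fall with IL-4 in low-collagen gels among the MiT factors and their regulators (−0.46).

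Tfec, a relative of Tfeb found mainly in macrophages, had the largest rise of that list. It was at 34.2 and 34.1 TPM on plates and 113 and 121 TPM there with IL-4, at 32.9 and 35.4 TPM in low-collagen gels and 72.3 and 66.6 TPM with IL-4, and at 24.8 and 29.2 TPM in high-collagen gels and 51.4 and 49.95 TPM with IL-4. IL-4 libraries were above untreated ones on each substrate, with log2 fold changes of 1.75 (SE 0.0887, adjusted p = 7.5e-07) on plates, 1.00 (SE 0.0996, adjusted p = 0.000301) in low- and 0.89 (SE 0.0996, adjusted p = 0.000848) in high-collagen gels. With IL-4 it was lower in high- than in low-collagen gels (−0.45, adjusted p = 0.0488).

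Atp6v0d2, the d subunit known from osteoclasts and from macrophages treated with IL-4, had the largest rise of the 5 other V-ATPase genes tested. It was at 5.77 and 6.92 TPM on plates and 317 and 321 TPM there with IL-4, at 78.4 and 70.98 TPM in low-collagen gels and 435 and 464 TPM with IL-4, and at 47.2 and 51.7 TPM in high-collagen gels and 323 and 342 TPM with IL-4. On the log2 scale the difference with IL-4 was 5.45 (SE 0.0877, adjusted p = 1.01e-09) on plates, 2.57 (SE 0.0792, adjusted p = 9.92e-07) in low- and 2.73 (SE 0.0792, adjusted p = 1.04e-06) in high-collagen gels, and with IL-4 it was lower in high- than in low-collagen gels (−0.43, adjusted p = 0.0295). Atp6v1g2, a G subunit known from neurons, had the largest fall in low-collagen gels, from 7.11 and 11.8 TPM to 5.10 and 6.16 TPM (−0.63). Atp6v0a1, an a subunit, had the largest called fall of the 5 in high- against low-collagen gels with IL-4, at −0.45 (SE 0.0774, adjusted p = 0.0246), while Atp6v1g2 was not called there (−0.52, adjusted p = 0.27). It was at 153 and 158 TPM on plates and 454 and 467 TPM there with IL-4, at 91.1 and 104 TPM in low-collagen gels and 186 and 179 TPM with IL-4, and at 83.5 and 80.1 TPM in high-collagen gels and 131 and 136 TPM with IL-4. IL-4 raised it by 1.56 on plates, 0.90 in low- and 0.70 in high-collagen gels. The 6 osteoclast markers, of which Atp6v0d2 is one, summed to 10.5 and 12.8 TPM on plates, 56.4 to 84.1 TPM in untreated gels and 335 to 489 TPM with IL-4. Without Atp6v0d2 the other 5 summed to 4.75 to 9.11 TPM without IL-4 and 17.99 to 32.1 TPM with IL-4. From 3 to 5 of the 6 were at 1 TPM or more in a library, and Calcr was at 0 in each. Acp5, described above, is also one of the 6 and had the highest level of the other 5 in each IL-4 library. It was at 1.49 to 3.996 TPM without IL-4 and 9.895 to 21.1 TPM with IL-4. Ctsk reached 9.58 TPM, Dcstamp 2.12 TPM and Ocstamp 1.21 TPM at most. The part of these cells in the rise of V-ATPase genes was not tested.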

How the data were processed

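RNA was sequenced from 12 libraries of murine BMDMs, 2 for each of 6 conditions. Per the study's methods, stranded poly(A) libraries were sequenced as paired ends on a NextSeq 500 and pseudoaligned with kallisto 0.46.1 to Ensembl release 90 transcripts of GRCm38, and differential expression was tested with Sleuth. The authors deposited TPM (transcript abundance scaled to one fixed total) per gene, a value corrected for length. How transcripts were joined into genes is not given in the sources used here. TPM hold no depth, so no counting interval could be given.

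From these values, 129 of 34456 lines repeated another and were left out, which left 34327 genes. Values were taken as log2(TPM + 1), genes with a mean under 1 TPM in the fitted libraries were left out, and limma 3.58.1 (R 4.3.3) fitted 1 mean per condition with an intensity trend. The 8 gel libraries were fitted together for comparisons among gels (11852 genes) and all 12 for those with plates (11865 genes). P-values were adjusted by Benjamini-Hochberg over all genes of a fit, and a gene was called under 0.2. The procedure was tested on simulated data. The members and the lists of other genes were chosen with earlier results of these data known. Values by library are given for the called member with the largest rise and fall in each subgroup and comparison, for members called in a difference of IL-4 responses and for Tfeb and Tfe3, and for other genes by a like rule for IL-4 in low-collagen gels and for collagen density with IL-4, at a mean of at least 5 TPM.

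Alternatives were a pseudocount of 0.1, no filter, median-ratio rescaling of libraries, a replicate block, a threshold of 0.05, another set of fitted libraries and leaving out each library in turn. A correction for the GC content and length of transcripts and a crossed block were chosen after seeing the data. Shared sequence was measured as the share of 31-base words of a gene's transcripts found in another gene.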

Additional observations from a re-analysis of the deposited data

Results flagged for a closer look

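The response to IL-4 differed between gels and plates for 20 members in low-collagen gels and 17 in high-collagen gels, each by limma's test of the difference of the 2 log2 fold changes at an adjusted p under 0.2. Both sets of values rest on the same plate libraries. In low-collagen gels, the response was above that on plates for Lamp1 (0.19), Lamp2 (0.28), Cd63 (0.28), Hexa (0.26), Gla (0.28), Gusb (0.48), Gaa (0.30), Gm2a (0.50), Npc2 (0.56), Atp6v0e (0.30) and Atp6ap2 (0.42). It was below that on plates for Mcoln1 (−0.41), Scarb2 (−0.90), Sgsh (−0.30), Psap (−0.27), Lgmn (−0.73), Atp6v1a (−0.36), Atp6v1c1 (−0.28), Atp6v1h (−0.26) and Tfe3 (−0.50). In high-collagen gels, the response was above that on plates for Lamp1 (0.32), Lamp2 (0.42), Cd63 (0.20), Hexa (0.40), Gla (0.58), Gusb (0.55), Gm2a (0.44), Ppt1 (0.41), Npc2 (0.55), Atp6v0e (0.26), Atp6ap1 (0.20) and Atp6ap2 (0.36). It was below that on plates for Scarb2 (−0.56), Psap (−0.34), Lgmn (−0.58), Atp6v1a (−0.20) and Atp6v1h (−0.31). In all genes, 28.0% and 17.3% were called in these comparisons. The parts of substrate and of harvesting in these differences cannot be told apart.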

How the results depend on the processing

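The counts of members called kept within 1.5 times under each alternative, except as follows. For collagen with IL-4 (13), the count was 2 at a threshold of 0.05, 5 with no filter and 8 with a replicate block, and 2 to 3 without one library. For collagen without IL-4 (6), it was 0 at 0.05, 1 with no filter, 2 after rescaling, 1 with the block, and 0 to 2 without one library. For the IL-4 response against plates, it was 13 (low-collagen gels, 20) and 10 (high-collagen gels, 17) at 0.05, and 11 to 14 without one library for the latter. Correlations of the replicates' deviations ran from −0.123 to 0.109 over 15 pairs of conditions, 1 of them over 0.1. The lowest values came from untreated against IL-4 libraries of one substrate, −0.123 on plates and −0.117 at low collagen. These correlations cannot decide whether the replicate numbers pair the samples, because the sample labels do not state how replicates were matched. The replicate block moved no other count by over 1.5 times. A crossed block gave 33 calls for IL-4 in low-collagen gels (32) and 25 on plates (25).

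The sign of called values turned under rescaling, against plates in high-collagen gels without IL-4, for Atp6v0b (0.072), Atp6v1d (0.014) and Atp6v1f (0.074). With IL-4 it turned there for Atp6v0b (0.11), Atp6v0e (0.10), Atp6v1b2 (0.12), Atp6v1f (0.12) and Tpp1 (0.014), and in low-collagen gels for Atp6v1d (0.16), Neu1 (0.0039) and Ppt1 (0.060). With IL-4 in low-collagen gels it turned for Lgmn (0.087), Man2b1 (0.069) and Tcirg1 (0.019). After the correction for GC content and length it turned against plates in high-collagen gels for Atp6v1d without (0.12) and with IL-4 (0.027), and with IL-4 for Atp6v0e (0.068) and Atp6v1b2 (0.16). It also turned in low-collagen gels with IL-4 against plates for Atp6v1d (0.19) and Ppt1 (0.15), and with IL-4 in low-collagen gels for Man2b1 (0.024). The cause was not tested. Of 264 called values, 221 kept direction and threshold under rescaling and 29 lost the threshold, against 233 and 24 under the correction, 204 and 60 at 0.05, 238 and 26 with no filter, 249 and 15 with the block and 263 and 1 at a pseudocount of 0.1. Of 1204 values without one library, 1003 kept both and 201 lost the threshold. Without one library a condition has 1 sample, which is assumed to vary like the others. The depth is unknown, and 2 libraries a condition limit each comparison.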

Other observations

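The d and a subunits of V0 each have several genes, and the ratio of their TPM changed with IL-4. Atp6v0d2 was at 0.0235 and 0.0273 of the TPM of Atp6v0d1 on plates and at 1.08 and 1.11 of it there with IL-4. In low-collagen gels the ratio was 0.36 to 0.38 and 1.90 to 2.00 with IL-4, and in high-collagen gels 0.28 to 0.29 and 1.61 to 1.74. Atp6v0a1 was at 0.264 and 0.256 of the TPM of Tcirg1 on plates and at 0.813 to 0.850 there with IL-4, at 0.146 to 0.172 and 0.333 to 0.348 in low-collagen gels, and at 0.143 to 0.153 and 0.241 to 0.277 in high-collagen gels. The ranges with and without IL-4 did not overlap on any substrate in either ratio. Ratios within a library do not depend on how libraries are scaled to each other, and they do not show which of the genes changed.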
